A study of Mus musculus with 9 samples.

Results

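Tubulin isotypes are the separately encoded versions of alpha and beta tubulin, the subunits of microtubules. The 10 members, taken by symbol from a list of 4 alpha genes (Tuba1a, Tuba1b, Tuba1c and Tuba4a) and 6 beta genes (Tubb2a, Tubb2b, Tubb3, Tubb4b, Tubb5 and Tubb6), were all found among the 55385 gene identifiers of the series. Kidneys of C57BL/6 mice had gone into whole-tissue RNA sequencing as 3 groups, each with 3 biological repeats. Sham mice (labelled NS) received normal saline into the peritoneum, and the other two groups received cisplatin, a chemotherapy agent that forms DNA adducts and is toxic to kidney tubules, at 20 mg/kg by the same route and were sampled 3 days (Cis3d) or 7 days (Cis7d) later. The labels name no genetic change in any group, the sources used here give no age or sex, and sham mice are not assigned a day, so time since injection and cisplatin cannot be told apart. Values are FPKM (fragments relative to transcript length and to all mapped fragments of the library), and because this unit is per length, levels of different genes can be set side by side.

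Microtubules grow and shrink by adding and losing dimers of 1 alpha and 1 beta tubulin. In kidney epithelium they carry vesicles along the apical to basal axis, form the core of the primary cilium and build the mitotic spindle. The genes encode nearly the same protein body and differ mainly in the acidic tail, where enzymes add and remove residues and motors bind. Cells also control tubulin mRNA by its product: when free dimers are in excess, the adaptor TTC5 reads the first residues of the nascent tubulin chain and has the translated mRNA degraded.

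The sequences show which members can be measured apart. The start of the coding sequence, the stretch that TTC5 reads as protein, is printed for 9 members from the GENCODE M21 transcripts on GRCm38, with the codon that separates alpha from beta in capitals.
Tuba1a: atgcgtgagTGC
Tuba1b: atgcgtgagTGC
Tuba1c: atgcgtgagTGC
Tuba4a: atgcgcgagTGC
Tubb2a: atgcgcgagATC
Tubb2b: atgcgagagATC
Tubb3: atgagggagATC
Tubb4b: atgagggagATC
Tubb5: atgagggaaATC
The 4 alpha genes all carry TGC there and the 5 beta genes printed all carry ATC. Tuba1a, Tuba1b and Tuba1c began with the same 12 bases, and Tubb3 and Tubb4b likewise.

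The other end of the coding sequence encodes the acidic tail, and the last 60 bases, stop codon included, are printed for Tubb2a and Tubb2b with the bases that differ between them in capitals, to show how alike copies can be.
Tubb2a: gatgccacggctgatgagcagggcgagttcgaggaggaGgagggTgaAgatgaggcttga
Tubb2b: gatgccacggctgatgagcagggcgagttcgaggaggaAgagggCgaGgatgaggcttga
Tubb2a and Tubb2b differed at 3 of the 60 bases. Over the whole coding sequence Tuba1a was 98.3% identical to Tuba1b and 97.56% to Tuba1c, Tuba1b was 98.37% identical to Tuba1c, and Tubb2a was 96.49% identical to Tubb2b. Every stretch of 50 bases of each transcript was looked up in the transcripts of all other genes. For Tuba1a, 72.92% of them also occurred in another gene, for Tuba1b 73.79%, for Tuba1c 60.99%, for Tubb2a 49.58% and for Tubb2b 39.33%. For Tubb4b the share was 50.87%, of which the pseudogene Tubb4b-ps1 alone held 43.58%. Tuba4a (1.11%), Tubb5 (0.12%), Tubb3 (0%) and Tubb6 (0%) were nearly free of shared stretches. How the authors' counting divided reads between near-identical copies is not stated in the sources used here. Single values of Tuba1a, Tuba1b, Tuba1c, Tubb2a, Tubb2b and Tubb4b are therefore uncertain. Sums over member copies are given for the Tuba1 genes and the Tubb2 pair, and none for Tubb4b. These sums leave out other genes that share stretches, such as Gm17383 (46.58% of those of Tuba1a), Gm14150 (48.11% of Tuba1b) and Tubb2a-ps2 (18.83% of Tubb2a).

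The 9 libraries summed to between 421810 and 509537 FPKM and had 11647 to 13183 genes at 1 FPKM or more. Read depth is unknown, since the values hold no counts. The kidney label was met by proximal tubule markers, whose summed level over 7 genes ran from 1364 to 2385 FPKM in sham kidneys, from 148 to 211 in day 3 kidneys and from 1541 to 1812 in day 7 kidneys. Summed markers of injured tubule (6 genes) were at 324 to 700, 7965 to 12752 and 557 to 1890 FPKM in the same order. Day 7 library 2 stood apart from its group: Spp1, an injured tubule marker that encodes osteopontin, was at 1809.51 FPKM there against 551.74 and 575.54, and the summed markers of cycling cells reached 13.65 FPKM, the top of a day 7 range that began at 3.16. All 9 tested members had their highest day 7 value in that library, and 7 of the 9 had their highest sham value in sham library 2. Sham libraries were uneven as well. The proximal tubule marker Slc34a1 was at 393.54 FPKM in sham library 1 against 987.55 and 1051.23 in the others. Spp1 was at 675.69 FPKM in sham library 1 against 300.47 and 320.29. Havcr1, an injured tubule marker, was highest in sham library 2, at 35.45 FPKM against 8.29 and 1.5.

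Summed tubulin FPKM was higher in every day 3 kidney than in any sham kidney, and at day 7 it lay within the sham range. The 10 members summed to 292.86, 380.02 and 260.99 FPKM in the sham libraries against 834.04, 804.04 and 779.91 at day 3 and 273.9, 342.62 and 274.73 at day 7. The 3 day 3 libraries lay above all others, and the sham and day 7 libraries overlapped. On the log2 scale the day 3 sum was 1.39 ± 0.16 (SE) above sham, a 2.62-fold ratio, and the day 7 sum differed from sham by -0.06 ± 0.19 (exact permutation test, two-sided, p = 0.1 and 0.7, n = 3 a group). That exact permutation test cannot go below p = 0.1 with 3 libraries against 3. The day 3 to sham ratio was 2.13-fold after median-of-ratios scaling, which divides each library by its median ratio to the geometric mean of all libraries. The alpha members together stood 2.84-fold and the beta members 2.44-fold above sham at day 3. The ratio of summed alpha to summed beta FPKM was 0.782, 0.947 and 0.757 in sham against 0.825, 1.001 and 1.07 at day 3 and 0.757, 0.857 and 0.771 at day 7, with overlap between all groups (exact permutation p = 0.2 for day 3 against sham). In whole-kidney RNA, a change in how many cells of a type are present and a change in RNA per cell cannot be told apart.

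Gene by gene, values were compared as log2(FPKM + 1) in a limma model over 13718 genes, with Benjamini-Hochberg adjustment over all of them and a threshold of 0.05. The added 1 makes the fold changes of low genes smaller than their FPKM ratios. At day 3, 8 of the 9 tested members were higher than sham and none was lower. Across all tested genes 39.3% were called higher, and the groups did not overlap, with day 3 higher, in 42.1%. The median log2 fold change was 1.26 over the 9 members and 0.25 over all tested genes. The median of all genes moved to 0.03 with median-of-ratios scaling, under which 4084 genes were higher and 3950 lower in place of 5389 and 2825, and 7 members were still higher. The tenth member, Tubb3, never reached the filter of 1 FPKM in 3 libraries, and the other 9 were at or above 1 FPKM in all 9 libraries.

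**Figure D1:**
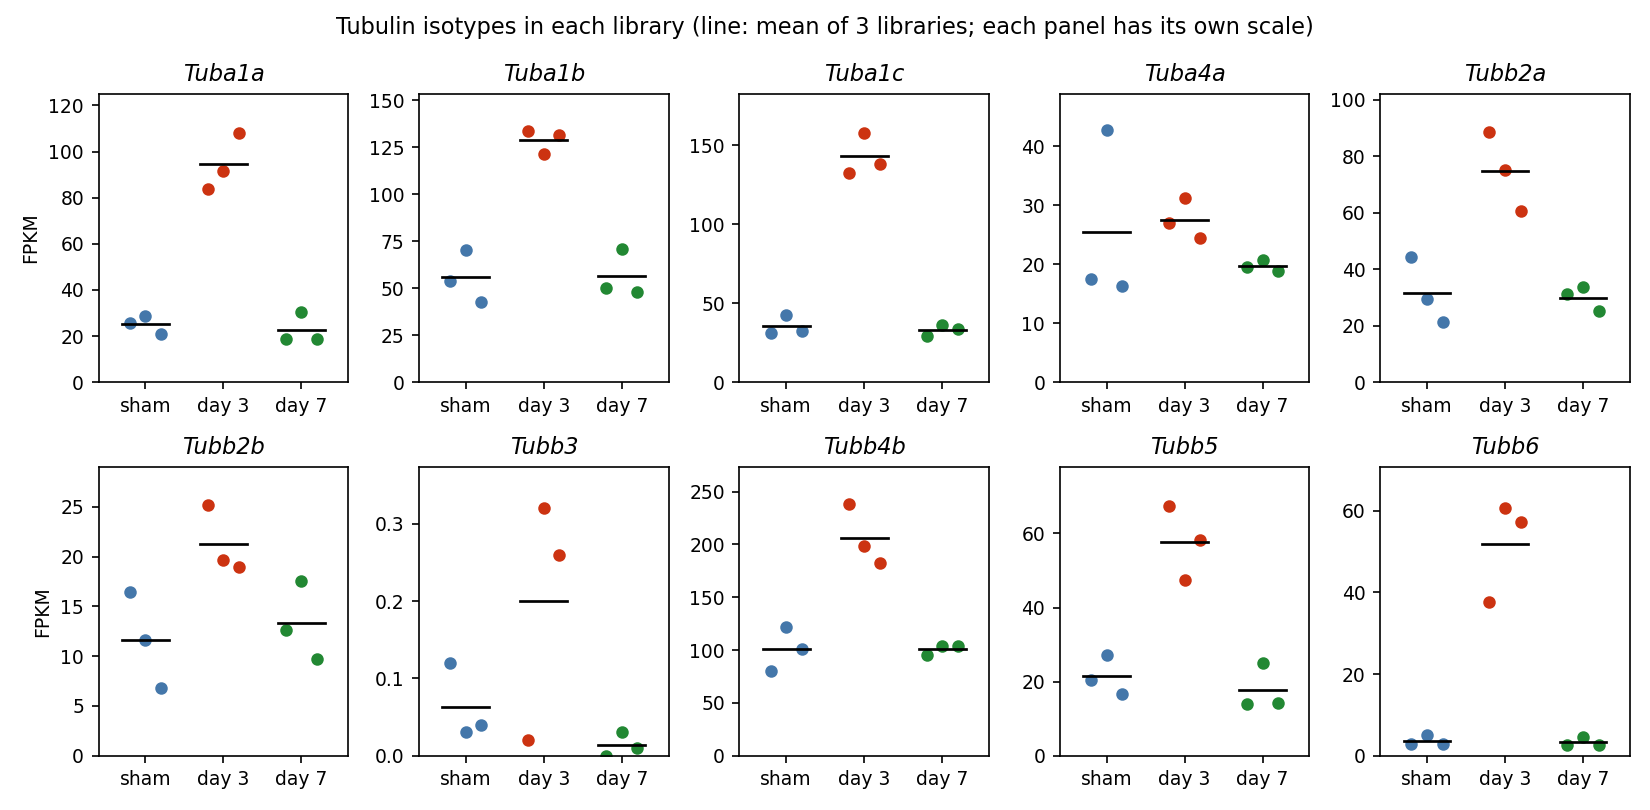
Deposited FPKM (y axis, from 0, own scale in each panel) of the 10 tubulin isotypes in the sham, day 3 and day 7 groups; each point is 1 library and each line the mean of 3. In 8 panels all 3 day 3 points lie above every sham and day 7 point, whereas Tuba4a has 1 sham library at 42.71 and Tubb3 stays at or below 0.32 FPKM.

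Among the alpha genes, Tuba1a, Tuba1b and Tuba1c rose. They lie together on chromosome 15 (GRCm38: Tuba1a 98949837 to 98953703, Tuba1b 98931425 to 98934565, both on the minus strand, and Tuba1c 99029891 to 99038110 on the plus strand). Tuba1a, the alpha isotype known for its high level in developing neurons, had 25.66, 28.72 and 21.06 FPKM in sham against 83.89, 91.44 and 108.18 at day 3 and 18.52, 30.36 and 18.92 at day 7. Its day 3 libraries did not overlap those of the other groups, and its log2 value rose by 1.87 ± 0.21 (SE, adjusted p = 9.76e-05, limma). Tuba1c, a widely expressed isotype, had 31.42, 42.81 and 32.31 FPKM in sham against 132.51, 157.95 and 138.25 at day 3 and 29.5, 36.31 and 33.88 at day 7, and rose by 1.99 ± 0.15 (adjusted p = 1.62e-05). Every day 3 library of Tuba1c was above 130 FPKM and every other library below 45.

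Tuba1b, the housekeeping alpha isotype of dividing and resting cells, was the most abundant alpha gene in sham and at day 7. It had 53.97, 70.55 and 42.76 FPKM in sham against 133.74, 121.54 and 131.63 at day 3 and 50.35, 70.74 and 48.05 at day 7. Its rise of 1.22 ± 0.20 (adjusted p = 0.000872) was smaller than those of Tuba1a and Tuba1c, a difference between genes that was not tested in the model. The 3 near-identical genes summed to 116.4 ± 23.4 FPKM in sham, 366 ± 14.5 at day 3 and 112.2 ± 21.9 at day 7 (SD, n = 3). A readthrough gene, Gm49450 (chromosome 15, 98932137 to 98953551, minus strand), spans Tuba1a and Tuba1b on their own strand. It had 9.02, 9.45 and 8.15 FPKM in sham against 22.31, 13.51 and 2.24 at day 3 and 0.21, 9.89 and 8.07 at day 7, and its part in the values of both genes was not tested.

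Tuba4a did not pass the test. Tuba4a (chromosome 1, 75214228 to 75219865, minus strand), the alpha isotype whose gene lacks a codon for the tyrosine at the protein's end, had 17.46, 42.71 and 16.29 FPKM in sham against 26.91, 31.22 and 24.37 at day 3 and 19.6, 20.7 and 18.78 at day 7. Sham library 2 was above all other libraries and the day 3 libraries lay between it and the other two sham libraries. The day 3 difference was 0.24 ± 0.31 (95% interval -0.47 to 0.95, adjusted p = 0.535, limma). Without sham library 2 it was 0.67 with an adjusted p of 0.00482, and without sham library 3 it was -0.0022. Stk16 overlaps Tuba4a on the opposite strand, and it too was highest in sham library 2, at 11.65 FPKM against 8.79 and 10.04. The sources used here do not say whether the authors counted by strand, and the part of Stk16 in the Tuba4a value was not tested.

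Among the beta genes, Tubb6 changed by far the most. Tubb6 (chromosome 18, 67390717 to 67402749, plus strand), a beta isotype known from muscle repair and able to make microtubule arrays less stable when overproduced, had 2.88, 4.95 and 2.85 FPKM in sham against 37.63, 60.75 and 57.16 at day 3 and 2.53, 4.52 and 2.65 at day 7. It went from the lowest of the 9 tested isotypes in sham to a mean of 51.8 ± 12.4 FPKM (SD, n = 3) at day 3, near that of Tubb5. Its log2 value rose by 3.54 ± 0.26 (adjusted p = 1.54e-05, limma), 11.6-fold on the log2(FPKM + 1) scale, and its transcript shares no stretch of 50 bases with another gene.

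Tubb4b (chromosome 2, 25222160 to 25224702, minus strand), a beta isotype found in most tissues and in cilia, was the most abundant of the 10 members in each group. It had 80.21, 121.97 and 101.01 FPKM in sham against 238.04, 198.71 and 182.16 at day 3 and 95.51, 103.94 and 103.39 at day 7. The day 3 libraries were all above the rest, and Tubb4b rose by 1.03 ± 0.17 (adjusted p = 0.000744). Tubb5 (chromosome 17, 35833921 to 35838306, minus strand), the general beta isotype of proliferating cells, had 20.45, 27.24 and 16.74 FPKM in sham against 67.49, 47.47 and 58.22 at day 3 and 14.08, 24.9 and 14.17 at day 7, and rose by 1.40 ± 0.25 (adjusted p = 0.00146).

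Both genes of the Tubb2 pair, of which Tubb2b is best known from neurons, rose. They lie on chromosome 13, minus strand (Tubb2a 34074274 to 34078007, Tubb2b 34126748 to 34130466). Tubb2a had 44.26, 29.4 and 21.16 FPKM in sham against 88.62, 74.96 and 60.75 at day 3 and 31.13, 33.54 and 25.21 at day 7, and rose by 1.26 ± 0.26 (adjusted p = 0.00263). Tubb2b had 16.43, 11.64 and 6.77 FPKM in sham against 25.19, 19.68 and 18.93 at day 3 and 12.68, 17.58 and 9.67 at day 7. The day 3 libraries of Tubb2b lay above both other groups, but the gap to the highest sham library was small. Its rise of 0.89 ± 0.30 (adjusted p = 0.0314) was lost without sham library 2 (0.0621), sham library 3 (0.0923), day 3 library 1 (0.0922), day 3 library 2 (0.0587) or day 3 library 3 (0.0506), with no filter (0.0628) and with median-of-ratios scaling (0.0706). Summed, the pair was at 43.2 ± 16.5 FPKM in sham, 96.0 ± 17.1 at day 3 and 43.3 ± 8.13 at day 7.

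Tubb3 (chromosome 8, 123411424 to 123422015, plus strand), the isotype used as a neuron marker, was nearly absent from the values. It had 0.12, 0.03 and 0.04 FPKM in sham against 0.02, 0.32 and 0.26 at day 3 and 0.03 and 0.01 in 2 day 7 libraries, and was listed at 0 in day 7 library 1. The day 3 libraries included both the highest values and one below all of sham, so the groups overlapped. Of 10 neuron markers only Uchl1 passed the filter, Th was listed at 0 in all libraries and Snap25 did not exceed 0.02 FPKM. The sum of the neuron markers ranged from 1.55 to 3.77 FPKM for sham, 9.40 to 12.45 for day 3 and 0.69 to 1.70 for day 7, of which Uchl1, also known from kidney epithelium, made up 8.98, 10.83 and 11.84 FPKM in the day 3 libraries.

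**Figure D2:**
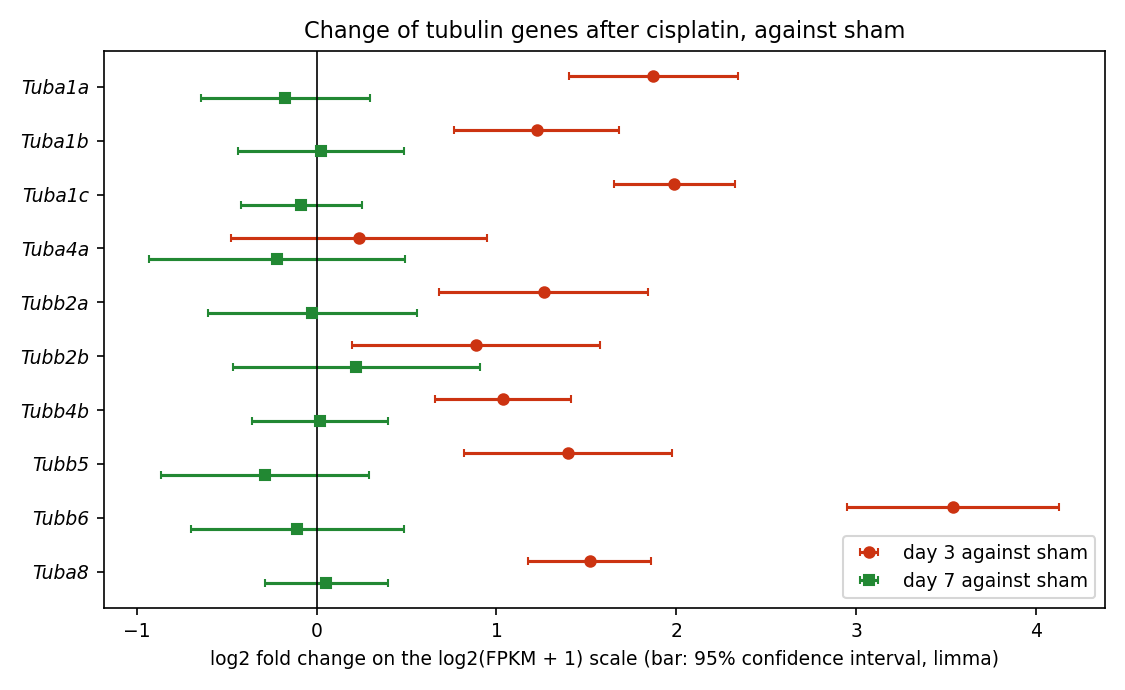
Log2 fold change on the log2(FPKM + 1) scale (x axis) of the 9 tested isotypes and of Tuba8 (y axis) against sham; circles are day 3, squares day 7 and bars 95% confidence intervals from limma. Every day 3 interval except that of Tuba4a lies above 0, with Tubb6 at 3.54, and every day 7 interval includes 0.

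At day 7 no isotype was distinguishable from sham. None of the 9 tested members was called, none had an unadjusted p under 0.05 and the lowest adjusted p was 0.431 (limma), while 29.7% of all tested genes were called, 19.3% higher and 10.4% lower. The same count of 0 was found under each alternative run, all of them limma fits. The differences ran from -0.29 for Tubb5 (95% interval -0.86 to 0.29) to 0.22 for Tubb2b (-0.47 to 0.91). With 3 libraries a group, changes within these intervals remain possible. Tubb4b, with the closest day 7 libraries, differed by 0.02 (-0.36 to 0.40) and Tuba1c by -0.08 (-0.42 to 0.25). The day 3 and day 7 comparisons share the sham libraries. Without day 7 library 2, which stood apart, the summed members differed from sham by -0.16 on the log2 scale, and no member was called.

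Day 7 was then set against day 3, which needs no sham library. Of the 9 members 7 were called lower at day 7 and none higher. The day 7 libraries lay below all day 3 libraries in each of the 9, called or not. Across all tested genes 33.7% were called lower and 21.7% higher, and 39.2% lay lower without overlap (calls were 3742 higher and 3744 lower with median-of-ratios scaling in place of 2977 and 4626). Tubb6 fell by 3.64 on the log2 scale (SE 0.26, adjusted p = 1.53e-05, limma), Tuba1c by 2.07 (SE 0.15, adjusted p = 1.53e-05) and Tuba1a by 2.04 (SE 0.21, adjusted p = 7.99e-05). Tubb5 fell by 1.68, Tubb2a by 1.28, Tuba1b by 1.20 and Tubb4b by 1.02, with adjusted p values of 0.000624, 0.00268, 0.00112 and 0.000952. The other two members were Tuba4a (-0.46 ± 0.31, adjusted p = 0.244) and Tubb2b (-0.66 ± 0.30, adjusted p = 0.0917). Both were called when only the 6 libraries of this comparison were fitted (adjusted p = 0.0166 and 0.0401).

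The members did not rise in proportion, so the makeup of the tubulin pool was compared as shares. Each member's FPKM was divided by the sum of the listed alpha, or beta, members in the same library, a quantity that library scaling cannot move. Among alpha genes Tuba1c made up 25.5% ± 2.92 of the sum in sham, 36.3% ± 2.64 at day 3 and 25.4% ± 2.70 at day 7 (SD, n = 3), and Tuba1a 18.1% ± 2.28, 24.0% ± 2.55 and 16.9% ± 1.99. The share of Tuba1b was 39.4% ± 2.25, 32.8% ± 2.63 and 42.5% ± 2.29, and that of Tuba4a 17.1% ± 5.26, 6.99% ± 0.864 and 15.1% ± 1.83. Day 3 and sham libraries did not overlap in any of the 4 alpha shares: Tuba1a and Tuba1c lay higher and Tuba1b and Tuba4a lower. Shares of a family add up to the whole in each library, so these are not 4 separate results. The split among Tuba1a, Tuba1b and Tuba1c also depends on how reads of these near-identical copies were divided. In sham library 2 Tuba4a was at 23.1%, beside Tuba1c at 23.2%, and in each day 3 library it had the lowest share of the 4.

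Among beta genes the share of Tubb6 was 1.75%, 2.54% and 1.92% in the sham libraries against 8.23%, 15.1% and 15.1% at day 3 and 1.62%, 2.45% and 1.71% at day 7. Every day 3 library was more than 3 times the highest of the others. Tubb4b made up 59.8% ± 9.88, 49.9% ± 1.96 and 61.4% ± 5.17 of the beta sum in sham, at day 3 and at day 7, and the day 3 and sham libraries overlapped, with sham library 1 at 48.8%. Tubb2a was at 18.7% ± 7.10, 18.0% ± 1.73 and 18.1% ± 1.86, Tubb2b was at 6.84% ± 2.82, 5.14% ± 0.327 and 7.96% ± 1.65, and Tubb5 at 12.6% ± 1.35, 14.0% ± 1.92 and 10.6% ± 2.55. Of the 10 shares, 5 did not overlap between day 3 and sham, 0 between day 7 and sham and 7 between day 7 and day 3. Each of those had an exact permutation p of 0.1, the smallest that 3 against 3 allows, and 0.25 after adjustment over the 30 share tests, so none passed a threshold of 0.05. With the near-identical copies summed, Tuba4a against the 3 Tuba1 genes and Tubb6 were what still separated day 3 from sham: the Tuba1 genes together held 82.9% ± 5.26 of alpha in sham, 93.0% ± 0.864 at day 3 and 84.9% ± 1.83 at day 7.

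**Figure D3:**
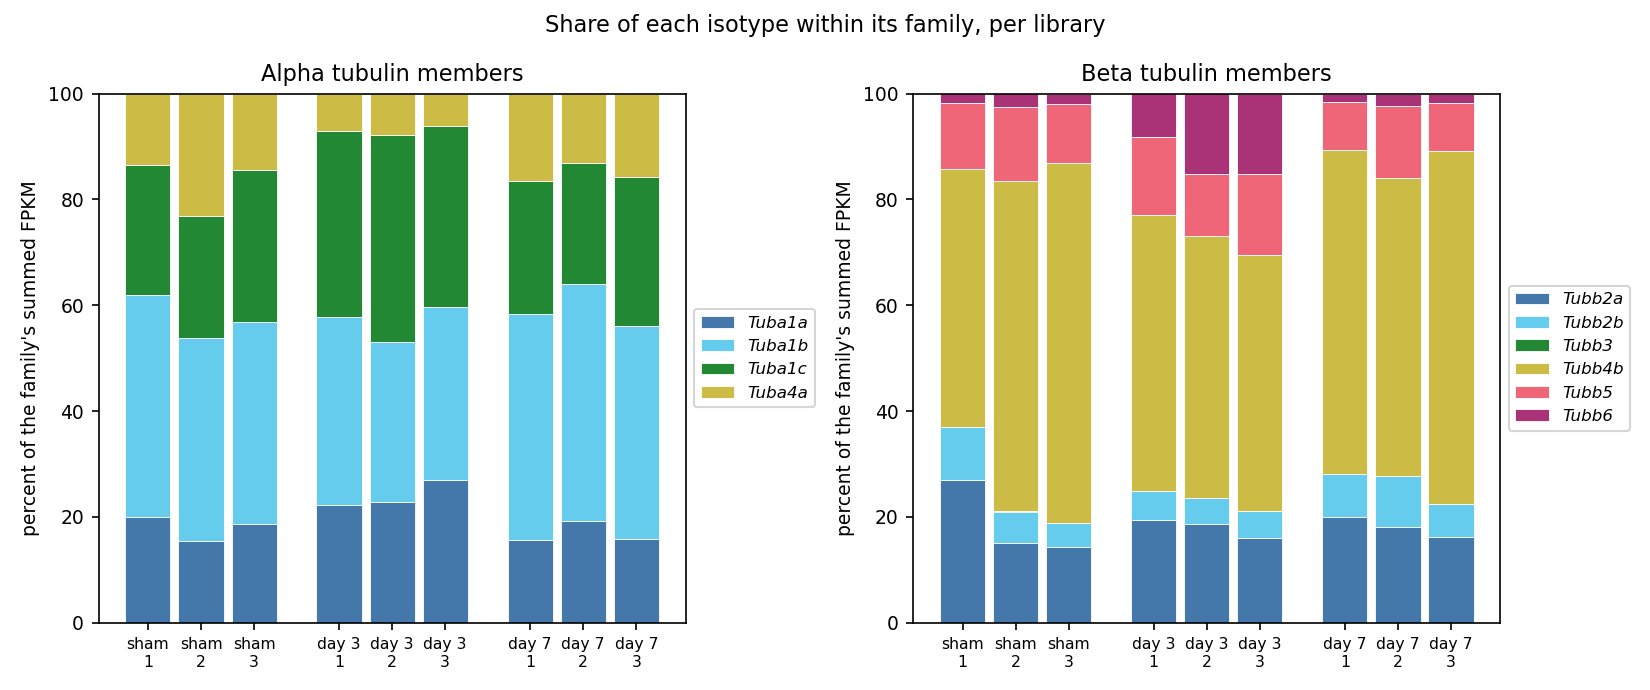
Percent of the summed FPKM of the 4 alpha members (left) and the 6 beta members (right) held by each isotype, 1 stacked bar per library in the sham, day 3 and day 7 groups. In the 3 day 3 bars Tuba4a shrinks to 6.06% to 7.76% and Tubb6 widens to 8.23% to 15.1%; Tubb3 is too low to be seen.

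The other tubulin genes were mostly at or near 0. Of 10 listed, 4 passed the filter: Tuba8, the gamma tubulins Tubg1 and Tubg2, which seed new microtubules, and Tubd1, a delta tubulin of centrioles. Tuba8, a divergent alpha isotype known from muscle and testis, had 0.24, 0.46 and 0.22 FPKM in sham against 2.68, 3.41 and 2.19 at day 3 and 0.37, 0.48 and 0.22 at day 7. It rose by 1.52 ± 0.15 at day 3 (adjusted p = 5.87e-05), but it passed the filter through the day 3 libraries alone, as did Tubg2, so both had to be higher there to be tested. Tubg1 had 10.75, 12.55 and 10.13 FPKM in sham against 15.12, 12.13 and 12.36 at day 3 and 8.36, 7.57 and 7.06 at day 7. Its day 3 difference of 0.22 did not pass (adjusted p = 0.159), and at day 7 it fell by 0.48 (adjusted p = 0.0222), which was not called without sham library 2 (0.0827), day 7 library 2 (0.0636) or day 7 library 3 (0.0801) and with mitochondrially encoded genes left out of the scaling (0.155) or a correction for GC content and length (0.131). Tubg2 differed from sham by 0.46 at day 3 (adjusted p = 0.0602, and 0.0305 with mitochondrially encoded genes left out). The correction for GC content and length put both Tubg1 (0.0235) and Tubg2 (0.0233) past the threshold at day 3. Tubd1 differed by -0.05 (adjusted p = 0.791). Tubb1, the isotype of platelets, did not exceed 0.18 FPKM, Tubb4a did not exceed 0.86, and Tuba3a, Tuba3b, Tubal3 and Tube1 did not exceed 0.22.

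Genes that fold, regulate and use tubulin were read from lists, whose counts are set beside the 39.3% of all tested genes that were higher and the 20.6% that were lower at day 3. Folding factors were mostly higher: of 21 chaperonin, prefoldin and cofactor genes 12 were higher and 2 lower, with a median log2 fold change of 0.57 (9 and 4 with median-of-ratios scaling). Vbp1, a prefoldin subunit that hands nascent tubulin to the chaperonin, was at 6.45 ± 0.530 FPKM in sham, 25.4 ± 1.90 at day 3 and 15.0 ± 1.05 at day 7 and rose by 1.82 at day 3 (adjusted p = 6.42e-06). Cct8, a subunit of that chaperonin, was at 28.8 ± 1.58, 65.7 ± 3.48 and 47.6 ± 0.872 FPKM and rose by 1.16 (adjusted p = 2.37e-05), and Pfdn4, another prefoldin subunit, rose by 1.12. Of the 3 genes of tubulin mRNA autoregulation, Ttc5, which reads the start printed above, rose by 0.50 (adjusted p = 0.0079) and Cnot11, a deadenylase complex subunit of the same pathway, by 0.48 (adjusted p = 0.0177). Neither was called after median-of-ratios scaling (adjusted p = 0.0566 and 0.323) or quantile normalization (0.0842 and 0.195), and Cnot11 was also lost without sham library 2 (0.0649), day 3 library 2 (0.061) or day 3 library 3 (0.0639). Scaper, the third, was not called.

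The enzymes that modify tubulin moved little. Of 10 tested, out of 16 listed, 2 were higher and 1 lower, with a median of -0.01. Ttl, the ligase that restores the final tyrosine of alpha tubulin, rose by 0.71 (1.88 ± 0.280 to 3.71 ± 0.391 FPKM), the glutamylase Ttll4 rose by 0.63, and the deacetylase Sirt2 fell by 0.60 (adjusted p = 0.0237). The Sirt2 call was lost without sham library 2 (0.0792), sham library 3 (0.0657) or day 3 library 1 (0.0688), with mitochondrially encoded genes left out (0.0623), with only the 6 libraries of the comparison (0.0553) and with the correction for GC content and length (0.0818). The Ttll4 call was lost with quantile normalization (0.0675). Median-of-ratios scaling gave 2 higher and 3 lower, and quantile normalization 1 and 4. Of 13 nucleation genes, which include Tubg1 and Tubg2, 6 were higher and none lower with a median of 0.46 (5 and 1 with median-of-ratios scaling). The count of higher nucleation genes was near the 39.3% over all tested genes. Among the 6, Tubgcp5 (0.45 to 1.02 FPKM) and Haus1 (0.867 to 1.41 FPKM) had sham means under 1 FPKM. Nedd1, which targets the gamma tubulin ring to the centrosome, rose by 1.26, Mzt1, a small subunit of that ring, by 1.24, and Haus2 of the augmin complex by 1.10.

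Counts for proteins on the microtubule lattice were near those of all tested genes, of which 39.3% were higher and 20.6% lower with a median of 0.25. Of 18 tested, 7 were higher and 3 lower with a median of 0.31. Mapt, which encodes tau, fell from 15.2 ± 2.36 FPKM in sham to 2.67 ± 1.28 at day 3 (log2 fold change -2.20, adjusted p = 0.000207) and was at 17.3 ± 3.71 at day 7. Map7d1, a kinesin cofactor, rose from 9.32 ± 0.962 to 25.7 ± 5.93 FPKM (1.35), and Mapre1, the plus-end tracker EB1, from 7.37 ± 0.235 to 18.8 ± 0.550 (1.24). The counts were 5 higher and 1 lower without sham library 2 or without day 3 library 3, 4 and 5 with median-of-ratios scaling, 3 and 4 with quantile normalization and 9 and 1 with mitochondrially encoded genes left out. Of 6 tested destabilising and severing genes 3 were higher and 2 lower: the depolymerising kinesin Kif2a rose by 1.53, the katanin subunit Katna1 by 0.72 and the severing enzyme Spast by 0.70. Of 21 tested motor genes 9 were higher and 2 lower with a median of 0.13 (7 and 4 with median-of-ratios scaling). The count of higher motor genes was also near the share over all tested genes. Kif5b, the ubiquitous kinesin-1 heavy chain, was at 4.56 ± 0.236, 17.0 ± 0.365 and 13.7 ± 0.943 FPKM in sham, at day 3 and at day 7 and rose by 1.70 at day 3, the dynein light intermediate chain Dync1li2 rose by 1.29, and the dynein light chain Dynll2 fell by 1.47.

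Primary cilium genes were mostly lower. Of 22 tested, 13 were lower and 4 higher, with a median log2 fold change of -0.37 (15 and 2 with median-of-ratios scaling, 8 and 4 with mitochondrially encoded genes left out). Without sham library 1 the counts were 7 lower and 4 higher, and without day 3 library 3 they were 8 and 3. Ift122, a retrograde intraflagellar transport subunit, fell by 1.51 from 4.62 ± 0.673 FPKM in sham to 0.967 ± 0.116 at day 3 and was at 4.38 ± 0.222 at day 7, the anterograde subunit Ift172 fell by 1.05, and Arl3, a GTPase of ciliary cargo release, by 1.02. Actin cytoskeleton genes, taken for comparison, were higher in 17 of 22 and lower in 1, with a median of 1.15 (14 and 3 with median-of-ratios scaling). Actn1, an actin crosslinker, rose by 2.65 (5.17 ± 1.18 to 37.4 ± 4.55 FPKM), the tropomyosin Tpm4 by 2.48 (16.2 ± 3.54 to 94.8 ± 21.4) and the capping protein Capg by 2.38 (11.25 ± 8.55 to 52.3 ± 5.66).

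At day 7 the lists differed in how many genes stood apart from sham, read beside the 19.3% of all tested genes that were higher and the 10.4% that were lower. A day 7 call need not carry on a day 3 change. The cilium genes Ift88 and Pkhd1 were lower at day 3 and higher at day 7. Ift88 differed from sham by -0.43 at day 3 and 0.50 at day 7 (limma, adjusted p = 0.0314 and 0.0336). Pkhd1 differed by -0.88 and 0.60 (adjusted p = 0.0014 and 0.0226). The median log2 fold change was 0.20 for folding genes, 0.18 for nucleation genes, 0.16 for cilium genes, 0.02 for motor genes, -0.05 for actin genes and -0.12 for modifying enzymes, against 0.06 over all tested genes. Of the 22 actin genes 1 was higher and 1 lower (0 of either without sham library 2 or without day 7 library 3, 0 and 4 with median-of-ratios scaling). Folding genes counted 5 higher and 4 lower, and motor genes 8 and 5. With mitochondrially encoded genes left out the counts were 9 higher and 1 lower for folding genes and likewise 9 and 1 for motor genes, and with a correction for GC content and length they were 8 and 1 for folding genes and 6 and 3 for motor genes. Of the 22 cilium genes 6 were higher and 2 lower (9 and 0 with mitochondrially encoded genes left out). The cilium counts were 4 and 0 without sham library 2 and 4 and 1 without day 7 library 2. They were 5 and 0 without day 7 library 1 or day 7 library 3. Leaving out a library, the counts were 4 and 1 for folding genes without sham library 2 or day 7 library 3 and 3 and 2 without day 7 library 2, and 7 and 1 for motor genes without any one of the same 3 libraries. Mitochondrially encoded genes held 25.6% to 27.3% of a sham library's FPKM and 31.7% to 32.6% of a day 7 library's, and leaving them out moved the median of all genes from 0.06 to 0.21. Calls over all tested genes moved as well, from 2646 higher and 1429 lower to 3647 and 655 with those genes left out. They were 2046 and 1080 with the GC content and length correction and 2245 and 2227 with median-of-ratios scaling. Without sham library 2 they were 1696 and 774, without day 7 library 2 1693 and 1006, and without day 7 library 3 1928 and 724.

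**Figure D4:**
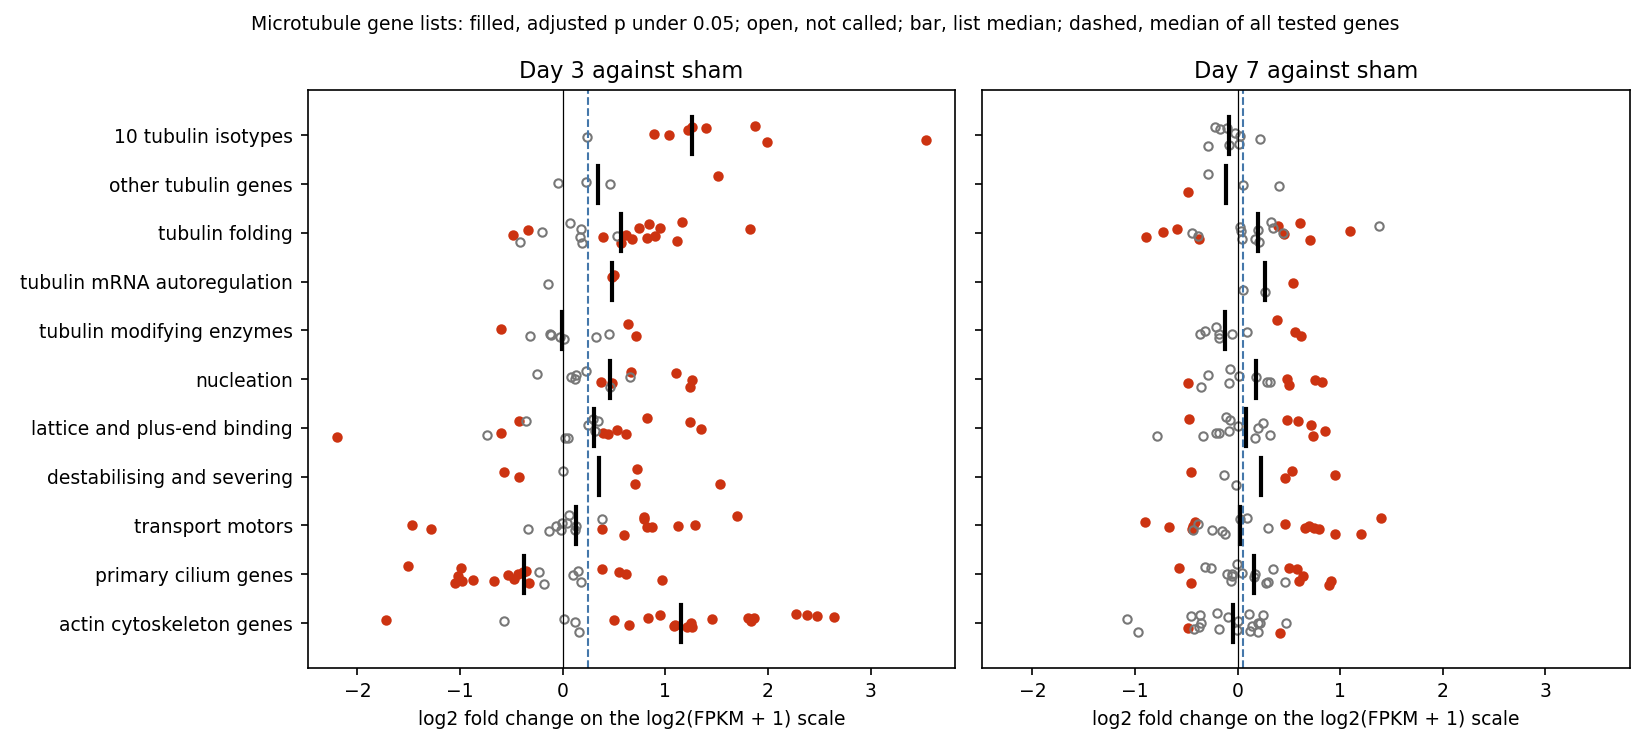
Log2 fold change on the log2(FPKM + 1) scale (x axis) of each tested gene of 11 lists (y axis), day 3 against sham on the left and day 7 against sham on the right; filled points passed an adjusted p of 0.05, open points did not, thick bars are list medians and the dashed line is the median of all tested genes. At day 3 the isotypes (median 1.26) and actin genes (1.15) lie to the right and cilium genes (-0.37) to the left; at day 7 the medians run from -0.12 to 0.27.

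Genes whose course over the 9 libraries was most like that of the summed isotypes were sought among 6131 non-tubulin genes with a mean of at least 5 FPKM, by the root mean square difference of log2(FPKM + 1), each taken relative to its sham mean. The closest was Ywhah, a 14-3-3 adaptor protein, with a difference of 0.142. It had 24.23, 26.53 and 24.71 FPKM in sham against 72.17, 65.4 and 73.57 at day 3 and 19.63, 27.67 and 20.3 at day 7. The next were Hgsnat, a lysosomal acetyltransferase (0.152), Rps4x, a protein of the small ribosomal subunit (0.152), Ctsd, the lysosomal protease cathepsin D (0.159), and Ric8a, a chaperone of G proteins (0.160). The points share their libraries and scaling, and the order among these 5 rests on small differences.

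Promoters were looked at because 8 isotypes moved together. The RefSeq table on GRCm38.p6 gives 250 bases before and 50 after each gene's start, and the windows of 8 of the 10 members were searched. These are not the same 8 that rose. Tubb2b and Tubb6 were not searched, while Tuba4a, which was not called, and Tubb3, which was not tested, were. Motifs were searched on both strands: CCAAT, the box bound by NF-Y; GGGCGG, the GC box bound by Sp1; TATAAA; TGA and TCA with any base between them, the AP-1 site; and GAANNTTC, a core of the heat shock element. The CCAAT box was in 5 of the 8 windows and in 37.4% of all 32851 promoters of the table, and the GC box in 7 of 8 and 35.7%. The TATA box was in 2 of 8 and 13.6%, and neither the AP-1 site (7.81%) nor the heat shock core (7.86%) was in any of the 8. The windows of Tubb4b, the most abundant isotype, Tubb5 and Tuba1c, the alpha gene with the largest rise, are printed from 250 to 11 bases before the start, in the direction of transcription, with CCAAT and GC boxes of either strand in capitals.
Tubb4b: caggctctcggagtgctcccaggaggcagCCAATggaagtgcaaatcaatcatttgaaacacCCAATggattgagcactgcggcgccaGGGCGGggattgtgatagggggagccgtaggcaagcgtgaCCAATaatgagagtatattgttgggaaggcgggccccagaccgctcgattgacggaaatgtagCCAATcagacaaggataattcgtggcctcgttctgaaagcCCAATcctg
Tubb5: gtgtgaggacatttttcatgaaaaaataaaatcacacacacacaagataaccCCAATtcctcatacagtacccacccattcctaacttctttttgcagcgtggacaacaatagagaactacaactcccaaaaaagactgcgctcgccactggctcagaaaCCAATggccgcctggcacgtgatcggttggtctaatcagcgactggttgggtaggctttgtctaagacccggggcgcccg
Tuba1c: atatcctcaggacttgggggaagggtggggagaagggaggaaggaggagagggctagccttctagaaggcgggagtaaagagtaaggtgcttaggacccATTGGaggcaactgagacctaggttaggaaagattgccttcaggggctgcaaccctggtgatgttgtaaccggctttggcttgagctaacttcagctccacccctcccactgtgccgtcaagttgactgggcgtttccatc
They lie at chr2:25224713-25224952 (minus strand), chr17:35838312-35838551 (minus strand) and chr15:99029641-99029880 (plus strand). Tubb4b held 5 CCAAT boxes, Tubb5 2 and Tuba1c 1, while Tuba1b, Tuba4a and Tubb2a held none. A match describes letters only, and its relation to the day 3 values was not tested.

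Of the marker lists for other cells, summed leukocyte markers did not overlap between sham and day 3, and the sums of fibroblast, endothelial and platelet markers did. The 9 leukocyte markers had sums of 32.7 to 46.4 FPKM for sham, 143 to 269 for day 3 and 30.5 to 84.7 for day 7, with Cd68 alone at 95.15, 113.57 and 86.69 FPKM in the day 3 libraries, whereas Cd3e was at or below 0.18 in all 9. Not all of these markers rose. Csf1r had 11.05, 12.5 and 10.69 FPKM in sham against 1.69, 4.85 and 4.05 at day 3, and Lyz2 overlapped between the 2 groups. The 7 fibroblast and pericyte markers summed to 47.4 to 52.85, 47.1 to 147 and 32.9 to 67.4 FPKM, and the 6 endothelial markers to 43.2 to 55.4, 26.6 to 74.6 and 38.3 to 53.25. These sums hid members that moved. Col3a1 had 1.23, 3.03 and 3.57 FPKM in sham against 3.78, 11.43 and 20.55 at day 3. Pdgfra and Dcn were also higher at day 3 without overlap, and the other fibroblast and pericyte markers overlapped. Among endothelial markers Emcn was lower at day 3 (12.24 to 15.56 against 5.3 to 10.76 FPKM). Flt1 was higher (2.2 to 3.07 against 4.25 to 11.58 FPKM), and the other endothelial markers overlapped. The part of these cells in the tubulin values was not tested. The 8 cycling cell markers summed to 1.70 to 4.74 FPKM in sham and 3.72 to 4.49 at day 3, so the 2 groups overlapped, and to 3.16 to 13.65 at day 7. The 7 platelet markers were at 1.70 to 2.87, 2.59 to 4.64 and 1.13 to 1.83 FPKM.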

How the data were processed

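FPKM for each gene of each library were computed and deposited by the authors, per the file headers. The submitters' processing notes name HISAT, StringTie, FastQC 0.10.1 and GRCm38, without roles. Neither an annotation release, a strand setting nor the handling of reads that fit several genes is stated in the sources used here. The labels speak of biological repeats. Identifiers were matched to GENCODE M21 (55144 with a symbol, 241 without). Members and gene lists were chosen with earlier results of these data known. The 13718 genes that reached 1 FPKM in 3 or more of the 9 libraries were tested as log2(FPKM + 1) with limma 3.58.1 (R 4.3.3, eBayes with trend, 3 groups, two-sided, Benjamini-Hochberg), a fit also tested on simulated data. Sums and shares were compared by exact permutation (scipy 1.17.1). Named genes were all members, the other tubulin genes, up to 3 called members of each list from the largest day 3 change down whose mean reached 1 FPKM in a group, and the 5 most alike genes. Alternatives were median-of-ratios scaling, mitochondrially encoded genes left out, quantile normalization, another pseudocount (0.1), another filter (5 FPKM) or none, robust variance, the 6 libraries of a contrast, a replicate block, a 2-fold minimum, other denominators and copies summed for shares, each library left out, and a GC content and length correction (splines with 5 degrees of freedom). Depth is unknown.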

Additional observations from a re-analysis of the deposited data

Results flagged for a closer look

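In 7 isotypes the response to cisplatin differed between day 3 and day 7. Both times share the sham libraries, so the difference of the 2 responses is the contrast of day 7 against day 3, which limma tested. On the log2(FPKM + 1) scale it was -3.64 for Tubb6, -2.07 for Tuba1c, -2.04 for Tuba1a, -1.68 for Tubb5, -1.28 for Tubb2a, -1.20 for Tuba1b and -1.02 for Tubb4b, each lower in 3 of 3 day 7 libraries than in any day 3 library.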

How the results depend on the processing

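The count of isotypes called was 7 or 8 at day 3, 0 at day 7 against sham and 7 to 9 at day 7 against day 3 under every alternative run. Of 1743 values recomputed, 1569 were rated the same. For a single gene this meant the same direction and side of the threshold. For counts, sums and shares it meant only a value near the main one, and small differences among sums and shares could change sign. The summed isotypes moved to 1.09 (day 3 against sham) and -1.26 (day 7 against day 3) with median-of-ratios scaling. With near-identical copies summed, 3 shares separated day 3 from sham and 4 day 7 from day 3, since fewer features were compared. Both counts include the Tuba4a share and the summed Tuba1 share, which mirror each other and are a single split. Leaving out 1 library gave 0 to 3 non-overlapping shares for day 7 against sham: 3 without sham library 1 or day 7 library 2, and 1 without sham library 2 or day 7 library 3. Small differences that had not passed the test changed sign, and the cause was not tested. With median-of-ratios scaling Tuba4a was at -0.0507 and Tubg1 at -0.0516 for day 3, and Tuba1b at -0.0909 and Tubb4b at -0.0973 for day 7. With mitochondrially encoded genes left out Tubd1 was at 0.0411 for day 3, and Tuba1a at 0.0303, Tuba1c at 0.12, Tubb2a at 0.18 and Tubb6 at 0.0562 for day 7. With quantile normalization the day 7 values of Tubb2a and Tuba8 were 0.0355 and -0.0279. With the correction for GC content and length, chosen after seeing the data, Tubd1 was at 0.11 for day 3, and Tuba1a at 0.0104, Tuba1c at 0.0623, Tubb2a at 0.21 and Tubb6 at 0.0723 for day 7. Leaving out 1 library gave -0.0022 to 0.67 for Tuba4a and -0.12 to 0.0878 for Tubd1 at day 3, and at day 7 -0.15 to 0.20 for Tuba1b, -0.16 to 0.0538 for Tuba1c, -0.46 to 0.21 for Tuba4a, -0.27 to 0.24 for Tubb2a, -0.09 to 0.49 for Tubb2b, -0.14 to 0.16 for Tubb4b, -0.31 to 0.10 for Tubb6 and -0.0105 to 0.14 for Tuba8.

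Whether the replicate numbers pair the samples could not be settled: deviations of same-numbered libraries from their group means correlated between -0.0543 and 0.2379. Libraries 1 and 3 of day 3 and of day 7 each correlated best with the sham library of their own number, and library 2 did not. Between day 7 and day 3 this held for library 1 only. With the replicate number as a block, 8 isotypes were called at day 3, 0 at day 7 against sham and 8 at day 7 against day 3, where Tubb2b was added (-0.66, adjusted p = 0.0392). Unknown depth and 3 libraries a group limit what could be detected.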
